A study of Homo sapiens with 24 samples.

Results

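The comparison described here is that of HPDE cells kept for 24 h with extracellular vesicles (EVs) of PPCL-68 cells against untreated HPDE cells, 3 libraries each, 6 of the 24 libraries of the study. HPDE-H6c7 is an immortalised line of human pancreatic duct epithelium, labelled as normal pancreas cells, and PPCL-68 is described in the series as a source of pancreas cancer cell EVs. Both lines of the study, HPDE-H6c7 and hTERT-HPNE, were grown in keratinocyte serum free medium in 24-well plates to 50 to 60% confluence. Each line then received fresh serum free medium (called untreated here), medium left over from EV isolation (the study's negative control, called residual medium here), 1e10 PANC-1 EVs per well or 1e10 PPCL-68 EVs per well. PANC-1 is an established pancreas cancer line. Each line is 1 established line, so the 3 libraries of a group, biological triplicates per the series, are repeats of 1 cell background. The question the series title names is whether pancreatic cancer EVs bring on the unfolded protein response in such cells. Expression is given as FPKM, a read count scaled to gene length and to library total, and the genes tested were those whose FPKM averaged 1 or more across the 12 HPDE libraries, 12223 of 48162 genes. A gene is said to have risen or fallen where its adjusted p (limma, Benjamini-Hochberg over all genes tested) was under 0.05, and each difference is one of log2(FPKM + 1), where the added 1 shrinks the differences of genes near 0.

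The 6 libraries held 29209142 to 42206773 reads assigned to genes and 21286 to 23080 genes with a read, and their 10 most abundant genes took 4.37 to 5.21% of reads. Libraries of 1 group differed by more than counting noise, with a chi-square per degree of freedom of 4.89 to 10.6. Of the 10 duct epithelial markers checked, CFTR had at most 4 reads in a library. KRT7, a duct keratin, stood at 727, 809 and 719 FPKM in the untreated libraries and 587, 607 and 604 with PPCL-68 EVs, and EPCAM, an epithelial adhesion molecule, at 150, 151 and 148 and at 192, 179 and 171. SOX9, a duct transcription factor, stood at 23.5, 25.6 and 22.7 and at 13.3, 14.4 and 15. Of the 8 duct markers tested 1 (EPCAM) rose, 5 fell (KRT7, KRT8, KRT18, KRT19 and SOX9) and 2 were not called, with a median of -0.52. Among all genes 30.1% rose and 36.1% fell. Of 8 acinar and 5 endocrine markers, 7 and 4 had at most 3 reads in every library. The exceptions were the acinar CEL, with at most 172 reads, and the endocrine CHGA, with at most 14. The summed FPKM of 9 stromal markers was 4.07 to 5.57 untreated and 3.32 to 4.97 with PPCL-68 EVs, and that of 7 immune markers 1.07 to 1.40 and 0.564 to 1.13. Of the stromal markers, the collagen gene COL1A2 had 0, 68 and 41 reads in the untreated libraries and 37, 0 and 77 with PPCL-68 EVs, so its trace moved between libraries and not with the groups. Because these are bulk samples, fewer cells of a type and less RNA per cell cannot be told apart in any result here.

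After 24 h with PPCL-68 EVs, 8100 of the 12223 genes (66.3%) differed from untreated cells, 3684 (30.1%) higher and 4416 (36.1%) lower. Most of these differences were small: 5241 of the genes called differed by less than 0.5 on the log2 scale, and the median over all genes tested was -0.03. A difference of at least 1 on the log2 scale was found for 574 genes (4.7%), 282 higher (2.31%) and 292 lower (2.39%). At least 2 was reached by 38 genes that rose and 12 that fell. In 8618 genes (70.5%) the 3 libraries of one group did not overlap with the 3 of the other. With libraries divided by median-of-ratios size factors the split was 4073 higher and 3952 lower, and the genes named below kept their direction. The residual medium compared with untreated cells gave 2443 genes (20%), of which 1214 were higher (9.93%) and 1229 lower (10.1%). That count fell to 1423 without untreated replicate 1, 1617 without untreated replicate 3, 1577 without residual medium replicate 1 and 1527 with no filter on low values. PPCL-68 EVs against residual medium gave 8281 genes (67.7%), 3826 higher (31.3%) and 4455 lower (36.4%), and PPCL-68 EVs against PANC-1 EVs gave 6123 (50.1%), 3039 higher (24.9%) and 3084 lower (25.2%). Comparisons that use the same untreated libraries share their errors, so their values are set side by side below and are not correlated.

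**Figure D1:**
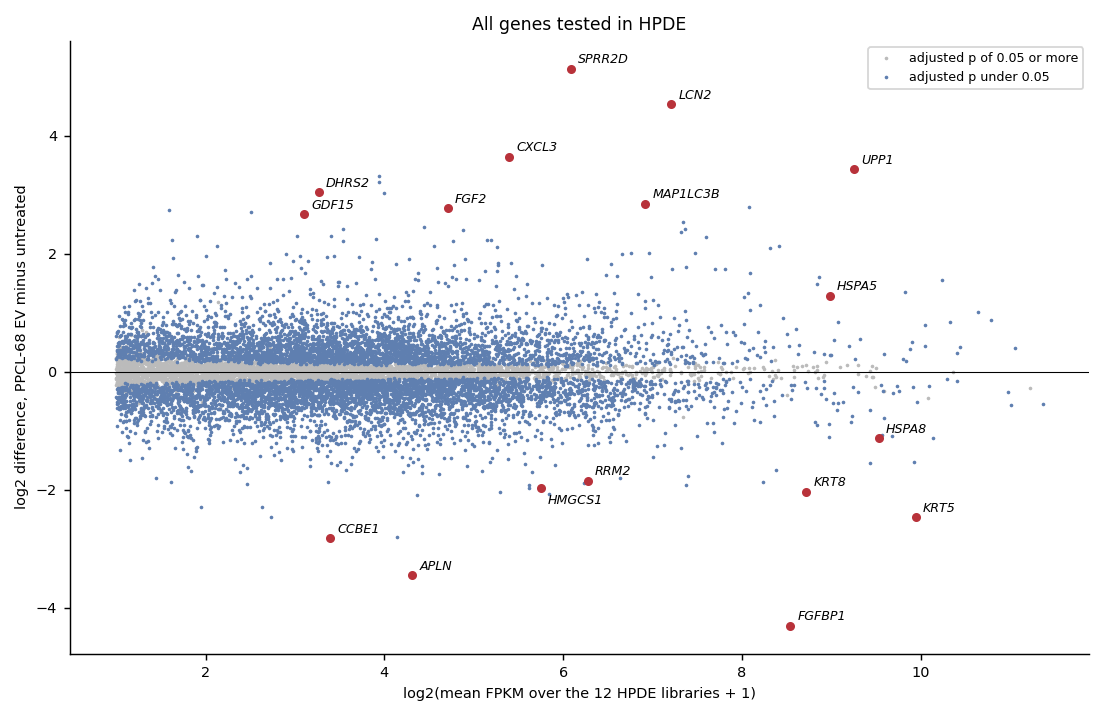
All 12223 genes tested, each a point: log2 of mean FPKM + 1 over the 12 HPDE libraries on the horizontal axis, log2 difference of PPCL-68 EVs minus untreated on the vertical, with genes past the threshold in blue and named genes in red. SPRR2D and LCN2 lie highest, at 5.13 and 4.53, and FGFBP1 lowest, at -4.31, while most called genes lie within 0.5 of 0.

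As background, the unfolded protein response is set off when proteins gather unfolded in the endoplasmic reticulum (ER), where membrane and secreted proteins are made. Its 3 sensors are the kinase PERK (gene EIF2AK3), the kinase and RNase IRE1 (gene ERN1), which splices XBP1 mRNA, and ATF6, which is cut to release a transcription factor. PERK shares its output with other stress kinases: they phosphorylate eIF2, general translation falls and the transcription factor ATF4 is made, an arm known as the integrated stress response. ATF4 and CHOP (gene DDIT3) act at C/EBP-ATF sites in genes of amino acid supply, while ATF6 and XBP1 act at ER stress elements in genes of ER chaperones.

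Promoter sequences of 6 genes are shown, each of a gene called here that carries the letters of a known element of stress or cell cycle control. They are the 250 bases before the gene start, from RefSeq on GRCh38.p14, read 5′ to 3′ on the gene's strand. Capitals mark the ER stress element (searched as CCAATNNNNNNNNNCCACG) in HSPA5 and XBP1, the C/EBP-ATF element (TGATGNAA) in CHAC1 and ASNS, and the cell cycle homology region (TTTGAA) in PLK1 and CDC20. The first letters of the ER stress element are themselves a CCAAT box. In CHAC1 the element lies on the opposite strand, and CDC20 holds 1 copy on each strand. HSPA5 (the chaperone BiP) lies at chr9:125241344-125241593 on the minus strand, XBP1 at chr22:28800570-28800819 on the minus strand, CHAC1 (a glutathione-degrading enzyme) at chr15:40953221-40953470 on the plus strand, ASNS (asparagine synthetase) at chr7:97872409-97872658 on the minus strand, PLK1 (a mitotic kinase) at chr16:23678639-23678888 on the plus strand and CDC20 (an activator of the anaphase-promoting complex) at chr1:43358731-43358980 on the plus strand.
HSPA5: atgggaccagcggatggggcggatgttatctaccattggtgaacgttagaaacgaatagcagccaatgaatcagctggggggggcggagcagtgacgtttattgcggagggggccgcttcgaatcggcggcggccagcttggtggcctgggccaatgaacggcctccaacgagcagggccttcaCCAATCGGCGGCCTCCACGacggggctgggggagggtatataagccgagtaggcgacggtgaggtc
XBP1: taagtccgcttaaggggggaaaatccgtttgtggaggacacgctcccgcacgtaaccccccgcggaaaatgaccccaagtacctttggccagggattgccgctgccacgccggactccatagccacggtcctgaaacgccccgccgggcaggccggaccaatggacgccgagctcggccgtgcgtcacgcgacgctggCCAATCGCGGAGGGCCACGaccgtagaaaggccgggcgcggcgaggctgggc
CHAC1: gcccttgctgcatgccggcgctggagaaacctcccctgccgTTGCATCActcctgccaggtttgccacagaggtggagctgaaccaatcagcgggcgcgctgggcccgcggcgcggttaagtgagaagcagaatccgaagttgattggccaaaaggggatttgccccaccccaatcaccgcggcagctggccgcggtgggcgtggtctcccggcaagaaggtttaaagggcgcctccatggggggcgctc
ASNS: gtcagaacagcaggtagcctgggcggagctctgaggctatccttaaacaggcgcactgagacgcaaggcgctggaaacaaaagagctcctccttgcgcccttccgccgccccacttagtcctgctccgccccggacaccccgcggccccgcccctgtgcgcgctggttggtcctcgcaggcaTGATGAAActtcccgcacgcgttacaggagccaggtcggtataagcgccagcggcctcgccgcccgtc
PLK1: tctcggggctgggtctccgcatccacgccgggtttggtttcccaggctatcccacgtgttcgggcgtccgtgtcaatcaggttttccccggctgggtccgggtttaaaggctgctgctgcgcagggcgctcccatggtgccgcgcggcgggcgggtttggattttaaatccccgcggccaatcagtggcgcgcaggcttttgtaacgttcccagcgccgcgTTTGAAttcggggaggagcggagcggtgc
CDC20: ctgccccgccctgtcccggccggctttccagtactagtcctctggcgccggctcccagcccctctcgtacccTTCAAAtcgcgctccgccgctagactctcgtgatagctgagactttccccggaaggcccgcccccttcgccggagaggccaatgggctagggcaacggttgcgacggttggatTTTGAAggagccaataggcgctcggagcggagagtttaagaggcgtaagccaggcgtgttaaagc

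In windows from 250 bases before to 50 after the start, searched on both strands, the ER stress element was in 22 of 27305 promoters (0.0806%). It was in 6 of the 17 ER chaperone promoters (35.3%), those of HSPA5, HSP90B1, CALR, CANX, CRELD2 and ERO1LB. Of the 18 ER degradation and translocation promoters 0 held it. The C/EBP-ATF element was in 1003 promoters of all (3.67%), in 6 of 16 cytosolic tRNA synthetase promoters (37.5%), in 4 of 10 amino acid transporter promoters (40%) and in 3 of 16 promoters of the integrated stress response list (18.8%). The cell cycle homology region was in 4212 promoters of all (15.4%) and in 10 of the 16 mitosis gene promoters (62.5%). It was also in 4 of 10 amino acid transporter promoters (40%) and in 1 of 19 DNA replication promoters (5.26%). A sterol element (ATCACNCCAC) was in 42 promoters of all (0.154%) and in 1 of 15 cholesterol gene promoters (6.67%). Among the 9343 promoters of genes tested the shares were 0.15% for the ER stress element and 1.61% for the C/EBP-ATF element. For the cell cycle homology region and the sterol element they were 9.25% and 0.0856%. A match of letters is a description of the sequence and does not show that a factor was bound there. In all, 475 of 624 listed genes were matched to a promoter.

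Genes of the integrated stress response rose with PPCL-68 EVs. Of 16 factors and effectors tested, 15 rose (30.1% of all genes) and 1 fell (36.1%), 11 of them by at least 1, with a median of 1.64 against -0.03 over all genes. ATF4, the transcription factor of this arm, stood at 119, 114 and 120 FPKM in untreated cells and 179, 175 and 167 with PPCL-68 EVs, a rise of 0.56 (SE 0.04, adjusted p = 1.99e-08). The groups did not overlap. DDIT3 (chr12:57910371-57914300 on hg19, minus strand), which encodes CHOP, stood at 6.91, 7.43 and 7.98 FPKM untreated and at 37.9, 38.6 and 38.1 with PPCL-68 EVs. This was 5.14-fold by mean FPKM and 2.22 on the log2 scale (SE 0.09, adjusted p = 5.18e-11), and the residual medium left it at 6.03, 7.16 and 8.99. PPP1R15A, the phosphatase subunit GADD34 that undoes eIF2 phosphorylation, went from 47.3, 48.1 and 56.7 to 302, 309 and 286 FPKM (log2 difference 2.54, SE 0.06, adjusted p = 4.6e-13). CHAC1 rose from 7.85, 10.1 and 8.96 to 50.1, 51.7 and 53 FPKM, or by 2.41. GDF15, a secreted stress cytokine, rose from 1.39, 1.63 and 1.11 to 13.6, 14.8 and 13.8 FPKM, the steepest of the list at 10.2-fold. The pseudokinase TRIB3 was already abundant, at 124, 136 and 130 FPKM, and reached 411, 419 and 416. ATF3, a stress-induced repressor, rose from 9.38, 10.4 and 12.7 to 42.2, 44.2 and 42.1 FPKM, and stood at 18.5 ± 2.9 (SD, n = 3) in residual medium.

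The member that fell was ATF5, a factor close to ATF4, at 16.4, 16.7 and 17.3 FPKM untreated and 14.8, 16.4 and 14.5 with EVs (log2 difference -0.13, adjusted p = 0.0263), and the groups come together at 16.4. Its call was lost under 7 of 12 alternatives, among them division by size factors (adjusted p = 0.124), so a fall of ATF5 is not established. Against residual medium in place of untreated cells, 15 members were higher (31.3% of all genes) and 1 lower (36.4%). The residual medium itself had 7 higher (9.93% of all genes) and 2 lower (10.1%) against untreated cells, with a median of 0.13. With PANC-1 EVs, 15 members were higher (26.3% of all genes) and 1 lower (34.4%) against untreated cells, with a median of 1.52. Tested directly between the 2 EV types, 6 of the 16 were higher with PPCL-68 EVs (24.9% of all genes) and 3 lower (25.2%), with a median of 0.07. DDIT3 was among the lower, at 37.9 to 38.6 FPKM with PPCL-68 EVs and 50.5, 52 and 53.2 with PANC-1 EVs (log2 difference -0.43, adjusted p = 0.00136). For TRIB3 (-0.05, adjusted p = 0.395) and GDF15 (0.05, adjusted p = 0.682) no difference between the EV types passed the test.

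**Figure D2:**
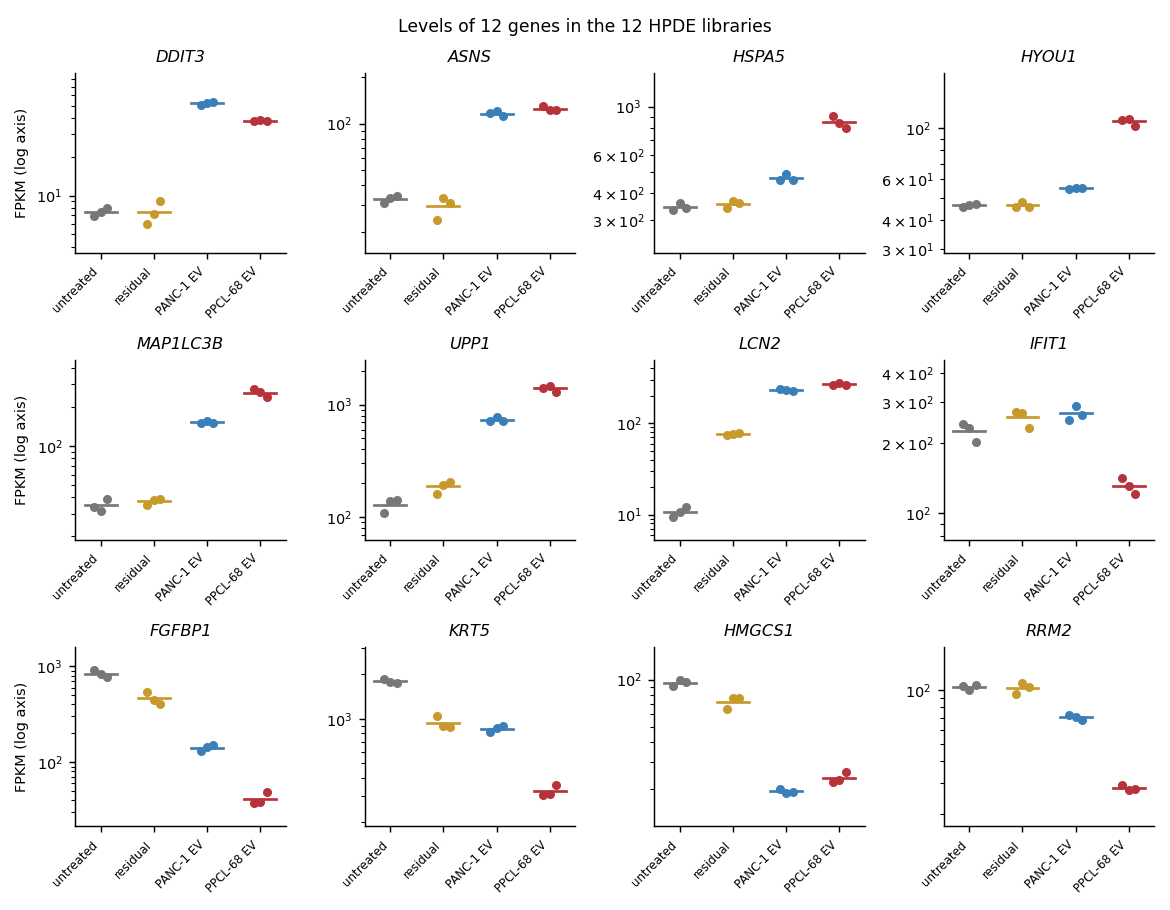
FPKM on a log axis of 12 genes in each of the 12 HPDE libraries, by treatment, points for libraries and bars for the group mean. DDIT3 and ASNS are high with both EV types, HSPA5 and HYOU1 are highest with PPCL-68 EVs, LCN2 is already raised by residual medium, and FGFBP1 and RRM2 are lowest with PPCL-68 EVs.

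The ER folding machinery rose as well. Of 18 ER chaperones and folding enzymes, 15 rose (30.1% of all genes) and 1 fell (36.1%), with a median of 0.63. HSPA5 (chr9:127997132-128003609 on hg19), the main ER chaperone BiP whose promoter with its element is printed above, stood at 335, 361 and 342 FPKM untreated and at 903, 837 and 799 with PPCL-68 EVs, 2.45-fold. The rise was 1.29 on the log2 scale (SE 0.05, adjusted p = 6.46e-11), and all 3 EV libraries lay far above all 3 untreated ones. Residual medium held it at 343, 368 and 358, and PANC-1 EVs at 460, 491 and 459. HYOU1, an ER chaperone of the HSP110 type, rose from 45.5, 46.6 and 46.9 to 108, 110 and 102 FPKM (1.18, adjusted p = 5.34e-12). DNAJB9, a co-chaperone of BiP, rose most in the list, from 4.21, 4.31 and 3.68 to 19, 18.8 and 17.9 FPKM, or by 1.95. MANF, a secreted ER protein, rose from 20.8, 22.7 and 22.7 to 33.6, 36.2 and 32.7 FPKM, by 0.61, and HSP90B1 (GRP94) by 0.30. CALR, the lectin chaperone calreticulin, fell, from 492, 508 and 508 to 425, 418 and 404 FPKM (-0.27, adjusted p = 7.71e-05), although its promoter is one of those with the ER stress element.

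Here the 2 EV types differed. Against PANC-1 EVs, 16 of the 18 chaperones were higher with PPCL-68 EVs and none lower, with a median of 0.62, where 24.9% of all genes were higher. The difference was 0.85 for HSPA5 (SE 0.05, adjusted p = 2.78e-08), 0.94 for HYOU1 (adjusted p = 6.56e-10), 0.88 for MANF and 0.61 for DNAJB9. MANF lay at 18.4, 19.3 and 16.6 FPKM with PANC-1 EVs, below its untreated level. With PANC-1 EVs against untreated cells, 5 of the 18 were higher (26.3% of all genes) and 7 lower (34.4%), which is near the background. With residual medium, 1 was higher (9.93% of all genes) and none lower (10.1%).

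Genes of ER-associated degradation and translocation, which draw misfolded proteins out of the ER or bring new ones in, went the same way. Of 20 tested, 17 rose (30.1% of all genes) and 1 fell (36.1%), the translocation factor SEC62, by 0.23. HERPUD1, a scaffold of the degradation complex, rose from 27.4, 28.3 and 26.9 to 78.4, 80.7 and 76.5 FPKM (1.48, adjusted p = 2.53e-12). SEL1L, its partner in that complex, rose from 12.4, 11.8 and 12.4 to 23.5, 24.1 and 25.6. SEC24D, a coat protein of vesicles leaving the ER, rose from 17.5, 15.2 and 16 to 37.2, 37.7 and 35.6 FPKM, by 1.14. PANC-1 EVs left SEC24D at 18.3, 16.3 and 18.5, overlapping the untreated libraries. Against PANC-1 EVs, 19 of the 20 were higher with PPCL-68 EVs (24.9% of all genes) and 1 lower (25.2%), with a median of 0.52. SEC24D differed by 1.02 (adjusted p = 7.23e-09), SEL1L by 0.84 and HERPUD1 by 0.51.

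Among 11 sensors and factors of ER stress, 6 rose (30.1% of all genes) and 4 fell (36.1%), the latter near the background share. ERN1, the gene of IRE1, rose from 2.78, 2.64 and 3.25 to 16.2, 17.8 and 20.8 FPKM, 6.31-fold (log2 difference 2.30, SE 0.10, adjusted p = 1.03e-10). XBP1, whose spliced form is the factor IRE1 makes, rose from 45.9, 48.7 and 47 to 153, 145 and 142 FPKM (1.61, adjusted p = 1.44e-12). Gene-level values do not separate spliced from unspliced XBP1. EIF2AK3, the gene of PERK, rose from 3.07, 2.73 and 2.57 to 4.97, 4.89 and 5.02 FPKM, by 0.66, and ATF6 by 0.26 (adjusted p = 0.00021). Between EV types, ERN1 and XBP1 differed by 0.31 (adjusted p = 0.0222) and 0.13 (adjusted p = 0.034), higher with PPCL-68 EVs. The kinases of the same eIF2 step that sense other stresses fell: EIF2AK4 (GCN2, amino acid shortage) from 25.4, 25.8 and 25.5 to 16.8, 16.2 and 18.8 FPKM, by 0.54, and EIF2AK1 (HRI, heme shortage) by 0.42.

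**Figure D3:**
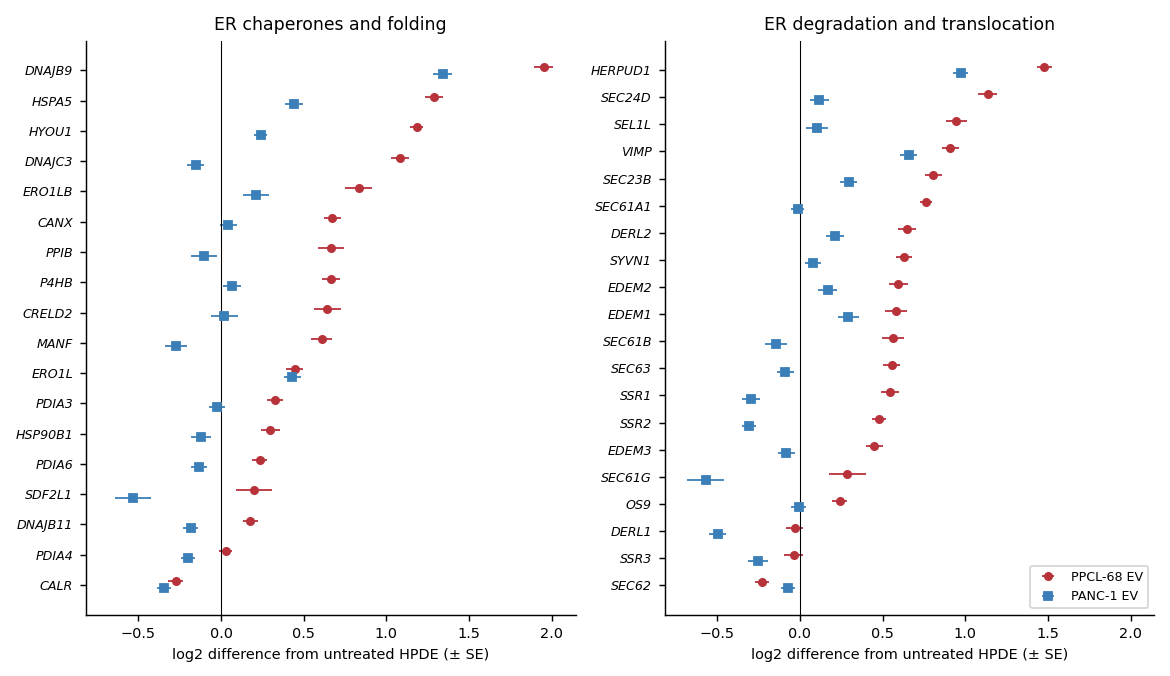
Log2 difference from untreated HPDE cells (points, with SE bars) with PPCL-68 EVs and with PANC-1 EVs, for the 18 ER chaperone and 20 ER degradation genes tested. For most genes, HSPA5, HYOU1, SEL1L and SEC24D among them, the PPCL-68 EV point lies to the right of the PANC-1 EV point.

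AGR2, a disulfide isomerase of the ER outside these lists, was the gene furthest above PANC-1 EVs. It stood at 1.86, 1.87 and 2.37 FPKM untreated, 2.51, 2.46 and 2.26 with PANC-1 EVs, and 9.76, 8.92 and 8.44 with PPCL-68 EVs (1.56 over PANC-1 EVs, adjusted p = 5.78e-09). DHRS2, a mitochondrial and nuclear reductase, stood at 24.9, 22.7 and 19.5 with PPCL-68 EVs against 8.59, 7.91 and 8.12 FPKM with PANC-1 EVs and 1.46, 1.79 and 2.29 untreated. CDH4, retinal cadherin, stood at 4.53, 5.17 and 5.2 with PPCL-68 EVs and at 1.26, 1.36 and 1.79 with PANC-1 EVs. These 3 genes were thus 1.28 to 1.56 higher on the log2 scale with PPCL-68 EVs than with PANC-1 EVs. AL096677.1 also met the rule (1.51 over PANC-1 EVs, adjusted p = 0.0493). With values of 0, 2.49 and 5.24 in untreated libraries it did not pass the test against them (adjusted p = 0.0999). Its call against PANC-1 EVs was lost under 8 of 12 alternatives, among them the replicate block, a pseudocount of 0.1 and 5 of the 6 libraries left out in turn, with an adjusted p of up to 0.221.

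Amino acid supply genes rose with the stress response. Of 12 transporters, 11 rose and 1 fell (median 0.74), and of 11 synthesis enzymes 10 rose and none fell (median 0.98). Among all genes 30.1% rose and 36.1% fell. ASNS, printed above with its C/EBP-ATF element, stood at 30.7, 32.9 and 34.3 FPKM untreated and at 129, 123 and 122 with PPCL-68 EVs (1.91, SE 0.08, adjusted p = 1.01e-10). SLC7A11, the cystine importer, rose from 9.97, 9.58 and 10.4 to 34.7, 34.4 and 32.6 FPKM, or by 1.67. In residual medium SLC7A11 was lower than untreated, at 5.2, 6.04 and 6. Of the 12 transporters 6 fell there (10.1% of all genes) and none rose (9.93%). CBS and CTH, the pair of enzymes that turn homocysteine into cysteine, rose by 1.56 and 1.27. PHGDH and PSAT1, early enzymes of serine synthesis, rose by 0.99 and 1.03. The one transporter that fell was the glutamate carrier SLC1A3, from 10.4, 9.18 and 8.63 to 2.72, 2.89 and 3.62 FPKM (-1.36, adjusted p = 1.34e-08). Of 20 cytosolic tRNA synthetases 12 rose and 5 fell (median 0.40), whereas of 16 mitochondrial ones none rose and 9 fell (median -0.20), beside the same 30.1% and 36.1%. The cytosolic SARS rose from 87.4, 85.4 and 90.5 to 205, 189 and 184 FPKM, and the mitochondrial VARS2 fell from 21.6, 19.4 and 20.3 to 8.83, 8.47 and 8.58. Each of these synthetases loads 1 amino acid, serine and valine here, onto its tRNA.

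Genes of lysosomes and autophagy, the route by which cells digest their own content, also moved one way. Of 19 tested, 13 rose (30.1% of all genes) and none fell (36.1%), with a median of 0.30. MAP1LC3B (chr16:87417601-87438385 on hg19), the LC3 protein of the autophagosome membrane, rose from 34, 31.7 and 38.9 to 273, 257 and 238 FPKM, 7.35-fold (2.85, SE 0.07, adjusted p = 3.92e-13). SQSTM1, the cargo receptor p62, rose from 60.9, 61.8 and 68.9 to 348, 353 and 330 FPKM, by 2.41. GABARAPL1, a relative of LC3, rose from 5.08, 5.15 and 4.69 to 12.3, 14 and 14. PANC-1 EVs gave lower levels for each of these 3, MAP1LC3B at 150, 154 and 150 FPKM and SQSTM1 at 172, 174 and 188, and the differences between EV types were 0.75 (adjusted p = 8.27e-07), 0.95 and 0.57. Over the list, 11 were higher with PPCL-68 EVs than with PANC-1 EVs (24.9% of all genes) and 2 lower (25.2%).

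Some of the steepest rises belonged to single genes of other kinds. UPP1 (chr7:48128225-48148330 on hg19), uridine phosphorylase, which frees ribose from uridine, rose from 108, 138 and 142 to 1413, 1455 and 1304 FPKM, 10.8-fold (3.42, SE 0.10, adjusted p = 1.4e-12). It stood at 162, 193 and 207 in residual medium and 714, 771 and 710 with PANC-1 EVs, so its groups stepped up without overlap from the control media to the 2 EV types, with 0.93 between the EV types. LURAP1L rose from 1.51, 1.96 and 2.5 to 27.9, 27.5 and 30.3 FPKM, and its difference between EV types did not pass the test (0.17, adjusted p = 0.138). FGF2, basic fibroblast growth factor, rose from 6.29, 6.38 and 6.76 to 49.9, 49 and 50.9 FPKM (2.77, adjusted p = 3.23e-14). TXNIP, an inhibitor of thioredoxin and of glucose uptake, rose from 59.6, 65.1 and 66.6 to 221, 208 and 213. NDRG1, a gene of hypoxia and stress, rose from 17.6, 20.1 and 18.4 to 60.3, 69.8 and 73.9. The glycolysis and hypoxia list had 7 of 16 higher and 5 lower (30.1% and 36.1% of all genes), which is near the background, and LDHA, lactate dehydrogenase, fell from 596, 576 and 576 to 381, 360 and 366 FPKM.

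The targets of NRF2, the factor of the oxidant response, gave 8 of 13 higher and 3 lower (median 0.39), beside 30.1% and 36.1% of all genes. Against PANC-1 EVs 9 were higher and 2 lower, beside 24.9% and 25.2%. HMOX1, heme oxygenase, rose from 3.15, 3.49 and 3.83 to 14.4, 12.4 and 10.5 FPKM (1.57, adjusted p = 3.2e-09) and lay at 3.98, 4.47 and 4.84 with PANC-1 EVs, 1.30 lower (adjusted p = 1.17e-07). FTH1, the ferritin heavy chain, rose from 119, 144 and 133 to 300, 275 and 242 FPKM, while in residual medium it was lower than untreated, at 104, 87.4 and 85.5. FTH1 has many near-identical pseudogene copies, so its value depends on how shared reads were counted. TXNRD1, thioredoxin reductase, rose by 1.07, and NQO1 and GCLM, other targets, by 0.57 and 0.32.

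Inflammatory genes rose as well, and most of them were also higher in residual medium than in untreated cells. All 18 chemokine and NF-kB feedback genes tested rose with PPCL-68 EVs (median 1.32), where 30.1% of all genes did. In residual medium 17 of the 18 were higher than untreated (median 1.14), where 9.93% of all genes were. Tested directly against residual medium, 10 of the 18 were higher with PPCL-68 EVs (31.3% of all genes) and 4 lower (36.4%). IL8, the neutrophil chemokine now named CXCL8, stood at 31.2, 36.5 and 37.3 FPKM untreated, 193, 167 and 161 with PPCL-68 EVs and 175, 226 and 226 in residual medium, so EV and residual medium libraries overlapped. PANC-1 EVs took it to 357, 356 and 342, and PPCL-68 EVs were lower by 1.02 (adjusted p = 1.03e-06). IL1B, the cytokine interleukin 1 beta, showed a like order, with 102, 104 and 95.2 FPKM untreated, 173, 170 and 187 with PPCL-68 EVs, 391, 335 and 323 in residual medium and 401, 444 and 383 with PANC-1 EVs. CXCL2 and CXCL3, chemokines close to CXCL1 in sequence, rose beyond the residual medium. CXCL2 stood at 44.5, 55.5 and 62.6 FPKM untreated, 174, 200 and 209 in residual medium and 401, 378 and 359 with PPCL-68 EVs, and CXCL3 at 4.16, 5.67 and 6.6, at 14.2, 20.8 and 22.9, and at 85.8, 80.5 and 70.9. Against residual medium the differences were 0.96 for CXCL2 (adjusted p = 7.24e-07) and 2.00 for CXCL3 (adjusted p = 2.45e-08), and -0.54 for CXCL1 (adjusted p = 0.00048). How reads shared by these near copies were counted is not given in the sources used here.

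Antimicrobial and acute phase genes followed the chemokines: all 8 tested rose with PPCL-68 EVs (median 1.70), and all 8 were higher in residual medium (median 1.22). The shares of all genes were 30.1% and 9.93%. Tested directly against residual medium, 3 of the 8 were higher with PPCL-68 EVs (31.3% of all genes) and 2 lower (36.4%), with a median of 0.11. LCN2 (chr9:130911350-130915734 on hg19), lipocalin 2, an iron-trapping protein of innate defence, rose from 9.47, 10.6 and 12 to 265, 277 and 265 FPKM, 25.1-fold (4.53, SE 0.06, adjusted p = 9.41e-16). It stood at 74.3, 75.7 and 78.3 in residual medium, and was 1.81 higher with PPCL-68 EVs than there (adjusted p = 1.03e-11). DEFB4A, a beta defensin, rose from 1.74, 0.998 and 0.786 to 19.9, 20.6 and 16.5 FPKM, but residual medium gave 12.2, 16.5 and 21.2, and the difference between these did not pass the test (0.21, adjusted p = 0.294). DEFB4A and DEFB4B are near-identical copies, and DEFB4B had 3, 2 and 0 reads untreated and 22, 25 and 27 with EVs. SPRR2D, a small proline-rich protein of the cornified envelope of stratified epithelium, had the largest rise of all named genes, from 2.32, 3.23 and 3.83 to 160, 140 and 128 FPKM (5.13, SE 0.11, adjusted p = 1.29e-13), with 17.5, 20.6 and 20.4 in residual medium. Its near copy SPRR2A reached 26.3, 21.7 and 18.6 with EVs and 17.8, 21.9 and 23.4 in residual medium, from 1.92, 1.57 and 2.04, with no difference between those 2 that passed the test (0.07, adjusted p = 0.616). VNN3, of the vanin family, rose from 0.151, 0.188 and 0.113 to 6.2, 5.99 and 7.27 FPKM. What the residual medium carried is not stated, and its part in the EV values was not tested beyond these contrasts.

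Of 17 interferon-stimulated genes tested, 7 rose (30.1% of all genes) and 6 fell (36.1%) with PPCL-68 EVs, with a median of 0.02, so against untreated cells the list was near the background. In residual medium 10 of the 17 were higher than untreated (9.93% of all genes) and none lower (10.1%), with a median of 0.22. Against residual medium, 1 was higher with PPCL-68 EVs (31.3% of all genes) and 7 lower (36.4%), with a median of -0.015. ISG15, a ubiquitin-like interferon product, rose from 888, 874 and 761 to 1448, 1589 and 1460 FPKM (0.83, adjusted p = 1.09e-06). IFIT1, which binds foreign RNA ends, fell from 241, 233 and 202 to 141, 132 and 121 (-0.77, adjusted p = 9.49e-07), and BST2, the virus tether, from 524, 513 and 468 to 272, 285 and 275 FPKM. MX1, an antiviral GTPase, overlapped between the groups, at 294, 322 and 258 untreated and 317, 294 and 275 with EVs (0.02, adjusted p = 0.81). Against PANC-1 EVs none of the 17 was higher and 13 were lower (median -0.45), where 25.2% of all genes were lower. PANC-1 EVs held IFIT1 at 251, 290 and 264 FPKM and MX1 at 451, 504 and 451, above the PPCL-68 EV libraries by 1.03 and 0.67. CXCL10, an interferon-induced chemokine, was the gene furthest below PANC-1 EVs, at 18.4, 14 and 15.3 FPKM with PPCL-68 EVs against 81, 107 and 78.5 (-2.40, adjusted p = 3.93e-09), and 22.1, 25 and 21.8 untreated. LTB, the cytokine lymphotoxin beta, came next, at 1.36, 2.04 and 2.36 against 13, 14.9 and 13.3 FPKM with PANC-1 EVs (-2.35, adjusted p = 1e-08). So CXCL10 and LTB fell with PPCL-68 EVs against untreated cells and lay above untreated cells with PANC-1 EVs.

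Of 11 genes of the EGF receptor family, which drive growth in duct epithelium, 8 rose (30.1% of all genes) and 2 fell (36.1%), with a median of 0.59. EREG, the ligand epiregulin, rose from 135, 127 and 130 to 618, 561 and 551 FPKM (2.13, adjusted p = 4.9e-13), and HBEGF from 30.6, 33.4 and 33.2 to 104, 102 and 102. AREG, amphiregulin, rose from 128, 115 and 140 to 288, 356 and 330. In residual medium HBEGF stood at 59, 62.3 and 61.4 and EREG at 159, 180 and 170, both between the untreated and the EV libraries. The ligands TGFA and NRG1 fell, by 0.15 and 0.36, and the receptor EGFR rose by 0.47. PPCL-68 EVs gave lower HBEGF (-0.60), AREG (-0.46), TGFA (-0.76) and NRG1 (-0.87) than PANC-1 EVs. Of genes downstream of ERK 9 of 16 were higher and 6 lower (30.1% and 36.1% of all genes). The feedback gene PHLDA1 rose from 31.6, 32.6 and 30.9 to 87.7, 78.8 and 80.6 FPKM, while EGR1, an early transcription factor, fell by 0.59.

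Matrix and protease genes gave 6 of 11 higher and 2 lower, and 8 of 10 higher and none lower, respectively, beside 30.1% and 36.1% of all genes. LAMB3, a chain of the basement membrane laminin, rose from 614, 666 and 667 to 1863, 1958 and 1902 FPKM (1.55, adjusted p = 5.94e-12). The matrix protein TNC rose from 14.4, 14.7 and 15.2 to 43.3, 45.6 and 49.3. MMP9, a gelatinase, rose from 10.1, 14.5 and 13.2 to 49.7, 68.9 and 70.7 FPKM (2.23, adjusted p = 3.24e-09), and MMP1, a collagenase, from 17.7, 16.2 and 15.8 to 63.1, 61 and 61.1. In residual medium 8 of the 10 were called higher too (9.93% of all genes), where the median was 0.54 against 0.77 with PPCL-68 EVs, and MMP1 was there at 58.1, 32.7 and 31.2. THBS1, thrombospondin 1, fell from 173, 174 and 169 to 97, 97.5 and 102 FPKM, and was at 106, 98.9 and 97.1 in residual medium, a difference that did not pass the test (-0.03, adjusted p = 0.58). For the mesenchymal marker VIM no difference passed the test (-0.07, adjusted p = 0.403).

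**Figure D4:**
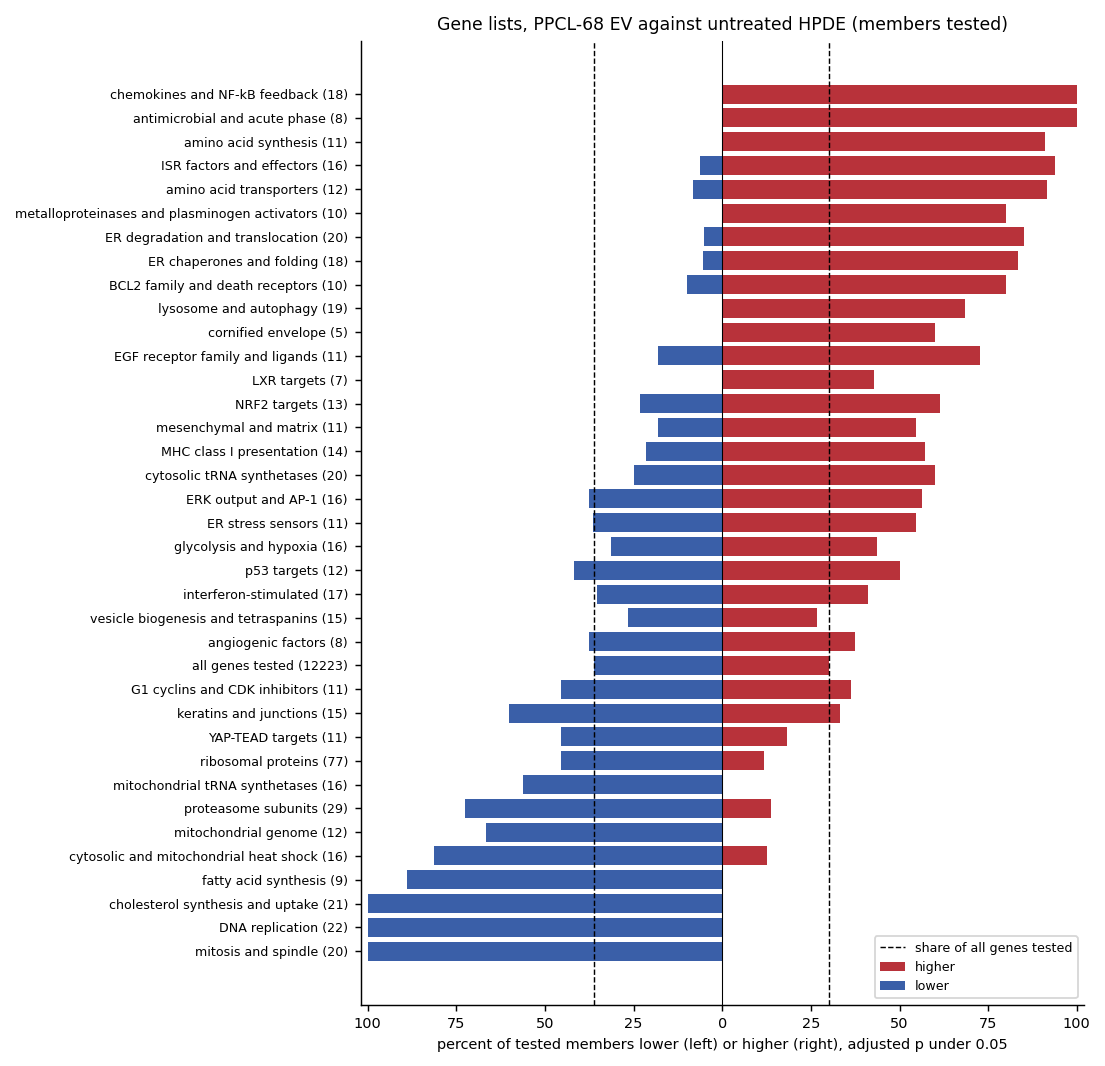
Share of the tested members of each gene list called higher (right) and lower (left) with PPCL-68 EVs against untreated HPDE cells, for lists with at least 5 tested members, with all genes tested for comparison. Dashed lines mark the 30.1% higher and 36.1% lower among all genes, and the cholesterol, mitosis and replication lists have no member called higher.

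The largest fall was that of FGFBP1 (chr4:15937192-15940363 on hg19), a carrier that frees FGF2 from the matrix. It went from 905, 838 and 775 to 37.6, 38.3 and 49.2 FPKM, 20.1-fold lower (-4.31, SE 0.11, adjusted p = 4.6e-13). It stood at 541, 445 and 404 in residual medium and at 130, 143 and 152 with PANC-1 EVs, so PPCL-68 EVs gave the lowest level of the 4 groups. APLN, the peptide hormone apelin, fell from 35.3, 37.2 and 39 to 2.24, 2.68 and 2.56 FPKM, 14.9-fold. CCBE1, a factor of lymph vessel growth, fell from 20.6, 19.3 and 20.8 to 1.94, 1.95 and 2.13 FPKM (-2.82), and the collagen COL8A1 from 30.4, 28.5 and 29.4 to 3.25, 3.15 and 3.74 (-2.80). For COL8A1 the fall was deeper than with PANC-1 EVs by 1.94 (adjusted p = 2.38e-10), the largest such difference among the 12 largest falls, and its level was 16.1, 19.2 and 18.2 in residual medium. FAM111B, a protease tied to replication, and TNS4, a tensin of cell adhesions, fell by 2.10 and 2.07, and PHACTR3 and CNTN1 by 2.47 and 2.29. KRTAP2-3, of a family of near-identical keratin-associated genes, fell from 27.8, 35.8 and 41.9 to 8.3, 7.54 and 7.08 FPKM but was higher in residual medium, at 85.8, 89.5 and 92.3.

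Of the list of 15 keratin and junction genes 5 rose (30.1% of all genes) and 9 fell (36.1%), and 3 rose without PPCL-68 EV replicate 3. Its 8 keratins, intermediate filaments of epithelium, all fell, while its tight junction genes CLDN1 and OCLN rose by 0.51 and 0.74. KRT10, a keratin of stratified epithelium in another list, rose by 0.54. KRT5 (chr12:52908359-52914471 on hg19), the basal keratin, fell from 1869, 1786 and 1756 to 308, 313 and 357 FPKM (-2.47, SE 0.07, adjusted p = 1.72e-12), with 937 ± 91.7 (SD, n = 3) in residual medium and 861 ± 42.2 with PANC-1 EVs. Its partner KRT14 fell from 481, 486 and 480 to 119, 127 and 146. KRT8, a keratin of simple epithelium, fell from 652, 664 and 645 to 160, 158 and 158 FPKM, and residual medium left it at 674, 641 and 656. Its partner KRT18 fell by 1.20 and the duct keratin KRT19 by 1.55. EPCAM rose by 0.27, and CDH1, E-cadherin, at 52.8, 53.5 and 49.9 untreated and 44.9, 47.4 and 51.4 with EVs, did not pass the test (-0.12, adjusted p = 0.0528). The summed FPKM of the 10 duct markers, 4 of them keratins, was 2794 to 3037 in untreated libraries, 1452 to 1466 with PPCL-68 EVs, 3159 to 3537 in residual medium and 1569 to 1831 with PANC-1 EVs. The part of a change in duct identity in these values was not tested.

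Cholesterol synthesis fell as a block. All 21 genes of cholesterol synthesis and uptake tested fell with PPCL-68 EVs, 14 of them by at least 1, with a median of -1.12. Among all genes 36.1% fell, 2.39% by at least 1. As background, these genes are switched on together by SREBP2 when ER membranes are short of sterol. HMGCS1 (chr5:43289497-43313614 on hg19), which makes HMG-CoA, fell from 90.4, 99.1 and 97.1 to 22.3, 22.9 and 25.6 FPKM, 4.05-fold (-1.97, SE 0.07, adjusted p = 6.3e-12). FDFT1, squalene synthase, fell from 258, 266 and 251 to 66.2, 66.3 and 69.9 FPKM (-1.92). Residual medium alone had 13 of the 21 lower (10.1% of all genes, median -0.26) and HMGCS1 at 64.8, 76.3 and 76.1. Against residual medium 20 of the 21 were lower with PPCL-68 EVs (36.4% of all genes). Of 9 fatty acid synthesis genes 8 fell and none rose (median -0.72), with SCD, the desaturase, falling from 294, 297 and 276 to 74.1, 79.5 and 102 FPKM and FASN, fatty acid synthase, from 214, 222 and 205 to 79.7, 91.5 and 99.8. Residual medium alone had 7 of these 9 lower (10.1% of all genes, median -0.44) and none higher. Against residual medium all 9 were lower with PPCL-68 EVs (36.4% of all genes, median -0.39). Of 7 targets and genes of the sterol receptor LXR 3 rose (30.1% of all genes) and 4 were not called (median 0.12). The 3 were the cholesterol exporters ABCA1 and ABCG1, by 0.93 each, and MYLIP, by 0.32, and ABCA1 stood at 0.625, 0.727 and 0.74 FPKM untreated and 1.95, 2.19 and 2.57 with EVs.

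Cell division genes fell without exception in both lists. All 20 mitosis genes fell, 11 by at least 1 (median -1.01), and all 22 DNA replication genes fell, 12 by at least 1 (median -1.03). Among all genes 36.1% fell, 2.39% by at least 1. RRM2 (chr2:10262455-10271545 on hg19), the ribonucleotide reductase subunit that makes DNA building blocks, fell from 105, 99.8 and 107 to 29.4, 27.4 and 27.6 FPKM (-1.85, SE 0.05, adjusted p = 1.22e-12). CDC45, part of the replicative helicase, fell from 29.3, 31.9 and 31 to 8.47, 8.19 and 8.86, and TYMS, thymidylate synthase, by 1.46. MKI67, the proliferation antigen Ki-67, fell from 37.7, 36.3 and 37.6 to 11.8, 13.1 and 13.6 FPKM (-1.47). The mitotic kinesin KIF20A fell from 33.5, 32.8 and 31.7 to 10.8, 9.83 and 9.89, and PLK1, whose promoter is printed above, from 38.5, 41 and 38.8 to 18.9, 17.4 and 17.5 FPKM (-1.10, adjusted p = 2.13e-10). Residual medium left RRM2 at 95.4, 109 and 105 and PLK1 at 41.4, 37.8 and 39.5, overlapping the untreated libraries.

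Tested between the EV types, division genes were lower with PPCL-68 EVs. Against PANC-1 EVs, 17 of the 22 replication genes were lower with PPCL-68 EVs (median -0.45) and 15 of the 20 mitosis genes (median -0.25), with none higher in either. Of all genes 25.2% were lower and 24.9% higher. RRM2 was at 72.9, 70.5 and 67.8 FPKM with PANC-1 EVs, 1.30 above PPCL-68 EVs (adjusted p = 5.84e-10), and CDC45 differed by the same 1.30. For PLK1 (-0.06, adjusted p = 0.389) and KIF20A (-0.10, adjusted p = 0.109) no difference passed the test. Of 11 G1 genes (cyclins, their kinases and inhibitors, and MYC), 4 rose and 5 fell (30.1% and 36.1% of all genes), with a median of -0.21. Among the inhibitors of cyclin-dependent kinases CDKN2A was called lower, CDKN2B was not called, and CDKN1A, CDKN1B and CDKN1C rose. CDKN1A (p21) rose from 51.1, 51.3 and 53.6 to 126, 133 and 139 FPKM (1.33, adjusted p = 5.07e-12). CDKN1C (p57) rose from 2.04, 1.87 and 1.74 to 6.39, 6.89 and 7.14, and stood at 2.69, 3.36 and 3.01 with PANC-1 EVs, 0.96 lower (adjusted p = 1.62e-06). The list of p53 targets, to which CDKN1A is often counted, gave 6 of 12 higher and 5 lower (30.1% and 36.1% of all genes). The cyclins CCND1 and CCND2, which start the cycle, fell by 0.40 and 0.72.

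Cytosolic heat shock genes moved against the ER chaperones. Of 16 genes (cytosolic and mitochondrial chaperones and the transcription factor HSF1), 2 rose (30.1% of all genes) and 13 fell (36.1%) with PPCL-68 EVs (median -0.41). HSPA8, the constitutive HSP70, fell from 1073, 1108 and 1106 to 545, 480 and 478 FPKM, and HSP90AA1 from 1382, 1377 and 1398 to 517, 465 and 459 (-1.53, adjusted p = 3.79e-11). The exceptions were HSPA9, mitochondrial HSP70, which rose from 189, 193 and 199 to 310, 293 and 293 FPKM, and HSF1, which rose by 0.28. With PANC-1 EVs HSPA8 was lower still, at 238, 231 and 245, and PPCL-68 EVs were 1.07 above that (adjusted p = 8.13e-09). Of the 12 mitochondrial genome genes tested none rose and 8 fell (36.1% of all genes, median -0.69). MT-CO1, a cytochrome oxidase subunit, was at 932, 1335 and 1013 FPKM untreated and 579, 499 and 462 with PPCL-68 EVs. With PANC-1 EVs all 12 fell (34.4% of all genes), with a median of -1.15. Proteasome subunits gave 4 of 29 higher (30.1% of all genes) and 21 lower (36.1%) with PPCL-68 EVs (median -0.38), with PSMD1 falling from 76.3, 71.8 and 72.7 to 40.8, 37.2 and 40.5. In residual medium 14 of the 29 were higher (9.93% of all genes) and none lower (10.1%). Without PPCL-68 EV replicate 2, 2 proteasome genes were higher. Of 77 ribosomal protein genes 9 were higher (30.1% of all genes), 35 lower (36.1%) and 33 not called, with a median of -0.14, and since they have many pseudogene copies their values depend on how shared reads were counted.

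Of the 48162 genes, 87 had at most 3 reads in every untreated library and more than 3 in every PPCL-68 EV library. For 123 genes it was the other way. These reads were not scaled to depth, which was 30169822, 42206773 and 40158158 untreated and 29209142, 37142943 and 33255256 with PPCL-68 EVs. The most expressed of the first kind was the non-coding RP1-56J10.8 on chromosome 22, with 0, 1 and 1 reads untreated and 49, 54 and 47 with PPCL-68 EVs. The pseudogene ISCA1P4 had 1, 3 and 0 reads and then 29, 23 and 14.

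In HPNE, the other line of the study, some libraries stood apart from their group before any comparison. These were untreated 3, residual medium 3, PANC-1 EV 1 and PPCL-68 EV 1: in the untreated group the chi-square per degree of freedom was 4.25 between replicates 1 and 2 and 76.7 to 81.2 against replicate 3, and in the PPCL-68 EV group 7.34 and 86.8 to 94. Whether labels were exchanged or the cultures differed cannot be told from the labels, so HPNE values are those of the libraries as labelled, and line differences are given with all libraries and without these 4. The PPCL-68 EV effect, tested as HPDE minus HPNE in a fit of 24 libraries, differed between the lines for 4029 of 10483 genes (38.4%), 2058 more positive in HPDE (19.6%) and 1971 more negative (18.8%). Without the 4 libraries it differed for 6557, 3353 more positive in HPDE and 3204 more negative. In HPNE alone 5773 of the 10483 differed from untreated (55.1%), and without the 4 libraries 3368 rose and 3972 fell.

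Both lines raised HSPA5, by 1.29 each, and the difference between them did not pass the test (-0.01 with SE 0.18 with all libraries, -0.13 and adjusted p = 0.168 without the 4). Nor did that of ERN1, 0.41 higher in HPDE (adjusted p = 0.118, and 0.0606 without the 4 at 0.35). Of the 18 chaperones 7 had a more positive effect in HPDE (19.6% of all genes) and none a more negative (18.8%), and of the 20 ER degradation genes 11 and 2. Without the 4 libraries the counts were 8 and 4 for chaperones and 13 and 3 for degradation genes, beside 3353 and 3204 of all 10483 genes. DNAJB9 was raised 1.31 more in HPDE (1.51 without the 4), SEC24D 1.46 more (1.34) and XBP1 0.46 more (0.37). Of 16 integrated stress response genes 14 rose in HPNE (12 without the 4), where 25.6% of all genes rose, and with or without them all 20 cholesterol genes tested in both lines fell there, where 29.5% of all genes fell. The lines differed in autophagy and stress genes: MAP1LC3B was raised 1.96 more in HPDE (2.00 without the 4 libraries), SQSTM1 1.56 more (1.66) and UPP1 1.81 more (1.87). Of 19 lysosome and autophagy genes 11 had a more positive effect in HPDE (13 without the 4) and 1 a more negative, where 19.6% and 18.8% of all genes did with all libraries. CDKN1A rose by 1.33 in HPDE and in HPNE stood at 308, 303 and 253 FPKM untreated and 286, 279 and 274 with EVs, a difference between lines of 1.37 (1.48 without the 4).

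Chemokine genes went the other way. All 16 tested in both lines rose in HPNE (25.6% of all genes) with a median of 3.08. Of the 16, 14 had a more negative effect in HPDE (15 without the 4), where 18.8% of all genes did with all libraries. IL8 in HPNE went from 2.31, 2.64 and 4.70 FPKM to 2817, 2333 and 2393, and the line difference was -6.98 (-7.13 without the 4). CXCL1 in HPNE went from 0.736, 0.785 and 0.811 to 470, 181 and 200 FPKM, against 20.2 to 30.4 and 63.3 to 70.6 in HPDE, a difference of -5.89 (-5.47 without the 4). COL8A1, which fell in HPDE, rose in HPNE from 82, 82.8 and 140 to 194, 218 and 227 FPKM, a line difference of -3.90 (-4.22 without the 4), and CCBE1 likewise fell in HPDE and rose in HPNE, a line difference of -3.73 (-3.98 without the 4). SNAI1, a transcription factor of epithelial-mesenchymal transition, rose by 0.72 in HPDE and fell in HPNE from 20.4, 23.1 and 7.7 to 1.93, 0.675 and 0.551 FPKM. Its line difference was 3.79 (adjusted p = 1.86e-05), and 4.54 without the 4 libraries. NDRG1 rose by 1.80 in HPDE and fell in HPNE from 51.6, 50.4 and 35.6 to 28.1, 17.2 and 18.3 FPKM, a line difference of 2.89 (3.27 without the 4).

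The division genes depended on the libraries that stood apart. With all libraries, none of the 20 mitosis genes differed between lines (median difference -0.77), and in HPNE none rose and 1 fell. Without the 4 libraries all 20 had a more negative effect in HPDE (median -1.34), and in HPNE 14 rose and 2 fell. For the 21 replication genes tested in both lines, 12 differed with all libraries and all 21 without the 4, each more negative in HPDE. Of all 10483 genes, 18.8% were more negative in HPDE with all libraries, and 3204 genes without the 4. In HPNE 25.6% of all genes rose and 29.5% fell with all libraries. Without the 4, 3368 rose and 3972 fell there, so calls became more frequent among all genes too. So the fall of division genes with PPCL-68 EVs was present in HPDE whatever the HPNE libraries, while its difference from HPNE was called for all 41 genes of both lists only without those 4.

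**Figure D5:**
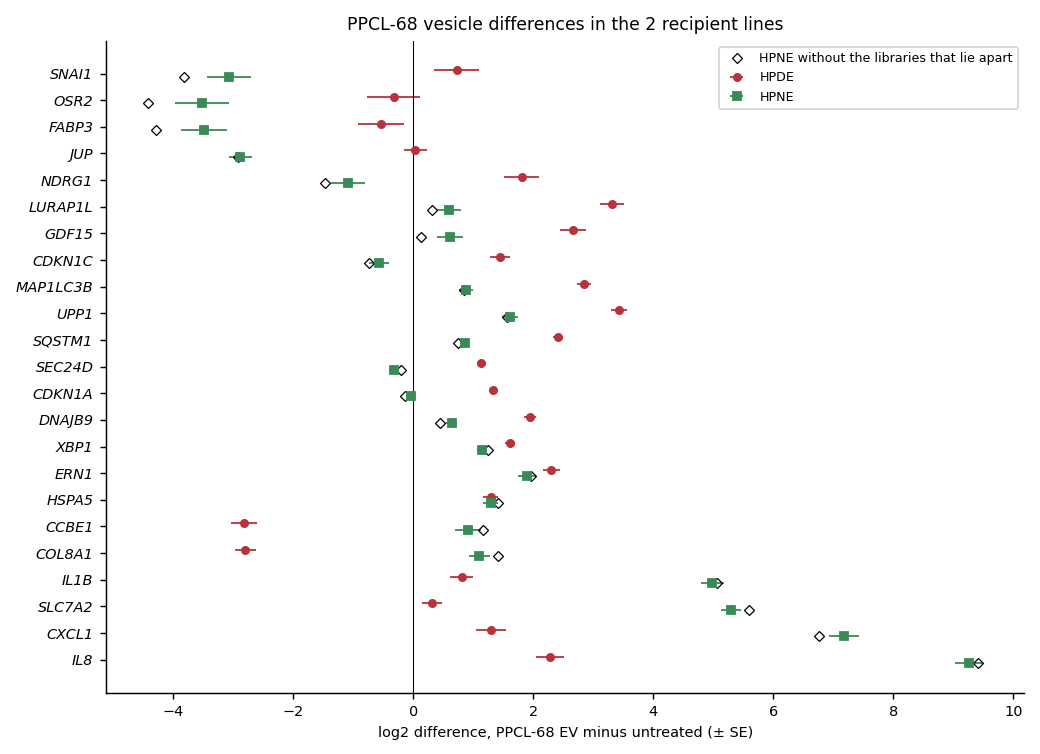
Log2 difference with PPCL-68 EVs against untreated cells for 23 genes, circles for HPDE and squares for HPNE with SE bars from the fit of 24 libraries. Open diamonds mark the HPNE value without the 4 libraries that stood apart. The HSPA5 points coincide, those of MAP1LC3B, UPP1 and SNAI1 lie further right in HPDE, and those of IL8, CXCL1 and COL8A1 further right in HPNE.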

How the data were processed

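The study sequenced RNA of 24 libraries in 8 groups of 3. For each library the authors deposited FPKM (fragments scaled by gene length and sequencing depth) of 48162 genes, per the file headers, with gene coordinates on hg19. The submitters' processing notes list CASAVA, STAR, HTSeq, DESeq2 and hg19, with no version, role or order. The library kit keeps no strand, per the labels' protocols, so overlapping antisense genes can share reads. FPKM times gene length came out as whole reads, within 0.01, for 100% of values, and depths are sums of these reads.

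Groups came from sample titles. The test was limma 3.58.1 (R 4.3.3) with a trend on log2(FPKM + 1), with the 12 HPDE libraries in 1 fit, treatment as the factor and 8 residual degrees of freedom. It was two-sided, with Benjamini-Hochberg adjustment over the 12223 genes whose FPKM averaged 1 or more and a threshold of 0.05. The difference between lines was a contrast in 1 fit of 24 libraries and 10483 genes. The fit was also run on simulated data in which far fewer genes differed than were called here, so that run does not check the counts above. A gene high in 1 group could pass the filter through that group.

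Genes named are the 12 largest rises and falls among protein-coding genes that passed the test with no overlap, in each list the key genes and up to 3 largest rises and falls, up to 5 genes each way against PANC-1 EVs and between lines, and up to 6 genes from at most 3 reads. KRT7 and CDC20 were named besides, KRT7 as a marker and CDC20 for its promoter. The members and lists were chosen with earlier results of these data known, and lists were written from general knowledge. Alternatives were a pseudocount of 0.1, no filter, size factors, the replicate number as a block, limma voom on the recovered reads, only the 6 libraries compared, and each library left out. Leaving out the 4 HPNE libraries that stood apart was chosen after seeing the data. Some members of the cholesterol list are not reported here by name.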

Additional observations from a re-analysis of the deposited data

Results flagged for a closer look

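These values were singled out because the effect of PPCL-68 EVs against untreated cells differed between the 2 cell lines by the test of the difference itself (limma, HPDE minus HPNE, log2 scale, 24 libraries). No explanation was tested. Over all genes, 4029 of 10483 differed. Genes with a more positive effect in HPDE were SNAI1 (3.79), OSR2 (3.19), FABP3 (2.95), the junction gene JUP (2.91), NDRG1 (2.89), LURAP1L (2.73), GDF15 (2.06), CDKN1C (2.02), MAP1LC3B (1.96), UPP1 (1.81), SQSTM1 (1.56), SEC24D (1.46), CDKN1A (1.37), DNAJB9 (1.31) and XBP1 (0.46). Genes with a more negative effect in HPDE were IL8 (-6.98), CXCL1 (-5.89), the arginine transporter SLC7A2 (-4.98), IL1B (-4.18), COL8A1 (-3.90) and CCBE1 (-3.73). Without the 4 HPNE libraries that stood apart all 21 kept their sign. The positive differences were then 4.54 for SNAI1, 4.09 for OSR2, 3.76 for FABP3, 2.95 for JUP, 3.27 for NDRG1, 3.01 for LURAP1L, 2.55 for GDF15, 2.18 for CDKN1C, 2.00 for MAP1LC3B, 1.87 for UPP1, 1.66 for SQSTM1, 1.34 for SEC24D, 1.48 for CDKN1A, 1.51 for DNAJB9 and 0.37 for XBP1. The negative differences were -7.13 for IL8, -5.47 for CXCL1, -5.28 for SLC7A2, -4.26 for IL1B, -4.22 for COL8A1 and -3.98 for CCBE1. For OSR2, FABP3 and JUP the effects in HPDE were -0.33, -0.54 and 0.03, so most of their difference was a fall in HPNE.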

How the results depend on the processing

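The 8100 genes called became 7525 to 7686 with 1 library left out and 7932 in the fit with a replicate block. The pairing correlations of same-numbered HPDE libraries of these 2 groups were -0.00443, 0.0226 and -0.0305, and those of HPNE 0.471, -0.333 and 0.463, so in neither line did every pair correlate. Counts of differences of at least 1, 574, moved to 928 with a pseudocount of 0.1 and 985 with limma voom on recovered reads (558 to 585 with 1 library left out). The residual medium count, 2443, was 1527 with no filter and 1423 to 2110 with 1 library left out, and the count between lines, 4029, was 6557 without the 4 HPNE libraries that stood apart and 3348 to 4455 with 1 library left out. The causes were not tested. The line difference of HSPA5, not called, changed sign to 0.051, 0.088, 0.028, 0.023 and 0.033 among values of -0.161 to 0.088 with 1 library left out. MX1 against untreated cells, also not called, changed sign to -0.061 and -0.028 among values of -0.061 to 0.098. Of the gene differences under alternatives, 4269 kept direction and call, 43 lost the call, 19 gained it and 7 changed sign. Of the list counts, 863 stayed within 1.5 times and 25 did not. Reads limit genes near 3 reads, where the pseudocount sets the size of a difference.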

Other observations

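Host genes of small nucleolar RNAs, long non-coding RNAs whose introns carry RNAs that guide ribosomal RNA modification, were looked at after their values were seen, so no test of the list is given. Of 16 tested, 9 rose (30.1% of all genes) and 3 fell (36.1%) with PPCL-68 EVs in HPDE (median 0.33). ZFAS1 stood at 127, 129 and 152 FPKM untreated and at 574, 633 and 551 with EVs (limma log2 difference 2.10, adjusted p = 1.32e-11). GAS5 rose from 77, 80.6 and 93.9 to 297, 292 and 274 FPKM, by 1.77, and C6orf48 from 75.3, 74.3 and 89.2 to 306, 359 and 301, by 2.00. In residual medium none of the 16 was higher (9.93% of all genes) and 1 was lower (10.1%). With PANC-1 EVs 9 were higher (26.3% of all genes) and 3 lower (34.4%). ZFAS1 overlaps a gene on the other strand, and these libraries keep no strand.

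Polyamine genes were chosen in the same way. Of 10 tested, 6 rose (30.1% of all genes) and 2 fell (36.1%), with a median of 0.27. ODC1, ornithine decarboxylase, which starts polyamine synthesis, rose from 119, 123 and 136 to 445, 428 and 393 FPKM (1.74, adjusted p = 5.26e-11), and SAT1, which starts polyamine breakdown, from 234, 235 and 242 to 747, 740 and 681. SMOX, spermine oxidase, rose from 5.02, 6.72 and 5.4 to 17.2, 20.5 and 17.1. ODC1 and SMOX were each 0.87 higher with PPCL-68 EVs than with PANC-1 EVs.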
